A study of Mus musculus with 7 samples.

Results

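The 10 genes of the AMPA receptor described here were measured by RNA-seq in mouse prefrontal cortex (PFC). They are the 4 pore-forming subunit genes Gria1, Gria2, Gria3 and Gria4, and the 6 auxiliary subunit genes Cacng2, Cacng3, Cacng8, Cnih2, Cnih3 and Shisa9. The members were taken by name from the protein-coding rows of the deposited gene table, and 10 of 10 were found among 21885 protein-coding genes and 55416 genes in all. Each of the 10 passed the filter on low counts that left 17254 genes in the tests. The libraries came from female C57BL/6 wild-type mice that had received recombinant adeno-associated virus (AAV) in the PFC of both hemispheres. The 3 Ctr libraries came from mice given an empty vector. The 2 Ref libraries came from mice given the human long noncoding RNA PAXIP1-AS1 with its reference C allele, and the 2 Alt libraries from mice given the same RNA with the alternative G allele. All vectors carried an EGFP reporter, under the human synapsin promoter, which is used to drive expression in neurons, while the tissue also holds other cell types. The study states that the transcript has no mouse counterpart, and its level was not analysed here. Neither the age of the mice in these groups nor the time between injection and collection is given in the sources used here, and the labels do not say whether each library came from 1 animal.

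AMPA receptors are glutamate-gated ion channels that carry most fast excitatory transmission between cortical neurons. Each channel is an assembly of the GRIA subunits, and the subunits it contains set its conductance and its permeability to calcium. The auxiliary subunits are membrane proteins that bind the channel, help it to reach the synapse and shape how fast it closes: Cacng2 (stargazin), Cacng3 and Cacng8 encode transmembrane AMPA receptor regulatory proteins (TARPs), Cnih2 and Cnih3 encode cornichon proteins, and Shisa9 encodes a protein of the Shisa family also called CKAMP44. The study examined mRNA of AMPA receptor subunits by another method, and the question here is what the libraries show for the whole group.

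The coding sequences of the 4 pore-forming subunits are shown at the codon that distinguishes GRIA2 in the mature receptor, because gene counts do not read what happens there. In Gria2 RNA this codon, known as the Q/R site, is edited by the deaminase that Adarb1 encodes, and the edited receptor passes little calcium. The sequences come from the GENCODE M21 annotation of GRCm38, run 5′ to 3′ on the coding strand, are 30 bases long, and have the codon in capitals.
Gria1: ctgggggccttcatgCAGcaaggatgtgac
Gria2: ttgggtgcctttatgCAGcaaggatgcgat
Gria3: ttgggtgcttttatgCAGcaaggatgtgat
Gria4: ctgggtgcctttatgCAAcaaggatgtgac
They lie in coding exons at chr11:57243079-57243108 on the plus strand for Gria1 (exon 11), chr3:80706899-80706928 on the minus strand for Gria2 (exon 11), chrX:41610250-41610279 on the plus strand for Gria3 (exon 11) and chr9:4464125-4464154 on the minus strand for Gria4 (exon 12). All 4 genes encode glutamine at this codon, which is codon 607 of Gria2, and the stretches differ from that of Gria2 at 5 bases in Gria1, 2 in Gria3 and 4 in Gria4. The deposited counts hold no base calls, so the extent of editing was not analysed here.

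The same coding sequences bear on how well reads can be assigned to 1 member. Over whole coding sequences the subunit genes were 65.47% to 70.73% identical, the TARP genes 50.08% to 70.47%, and Cnih2 and Cnih3 77.08%. The longest identical run between 2 members was 37 bases, in Gria3 and Gria4. The read length is not given in the sources used here. Other genes of the table lie over 8 of the 10 members. In 7 of these the overlapping genes had at most 47 counts in any library. Cnih2 lies over the coding gene Yif1a on the opposite strand, which had 43 to 178 counts where Cnih2 had 1313 to 3562. The strand setting of the counting is not given, so reads of the overlap cannot be told apart.

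Levels between genes were compared as FPKM, which is the count scaled by gene length and by the library's total. Cnih2 stood highest in the Ctr libraries, at 112 ± 16.6 FPKM (SD, n = 3), above 99.1% of protein-coding genes. Gria2 followed at 52.0 ± 5.22 FPKM and Gria1 at 51.1 ± 1.07 FPKM. Their Ctr ranges overlapped, and Gria2 was the higher of the pair in 1 of 7 libraries. This order rests on 1 table length per gene, 15548 bases for Gria2 and 6043 bases for Gria1. Before scaling by length, Gria2 had 14456 to 17991 counts in Ctr and Gria1 had 6027 to 6499. The lengths of the transcripts present were not measured. Next came Cacng3 at 41.4 ± 8.55 FPKM, Gria3 at 33.9 ± 2.59 FPKM and Cnih3 at 30.6 ± 3.51 FPKM, each overlapping its neighbour in the order. The lowest 4 were Shisa9 at 16.2 ± 1.76 FPKM, Cacng8 at 15.9 ± 2.36 FPKM, Gria4 at 15.4 ± 0.824 FPKM and Cacng2 at 15.1 ± 0.610 FPKM, and these could not be ordered beyond their spread. Cacng2 still stood above 87.6% of protein-coding genes, so each of the 10 was well expressed. In all 7 libraries Cnih2 was above Gria2, Gria1 above Cacng3, and Cnih3 above Shisa9.

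**Figure D1:**
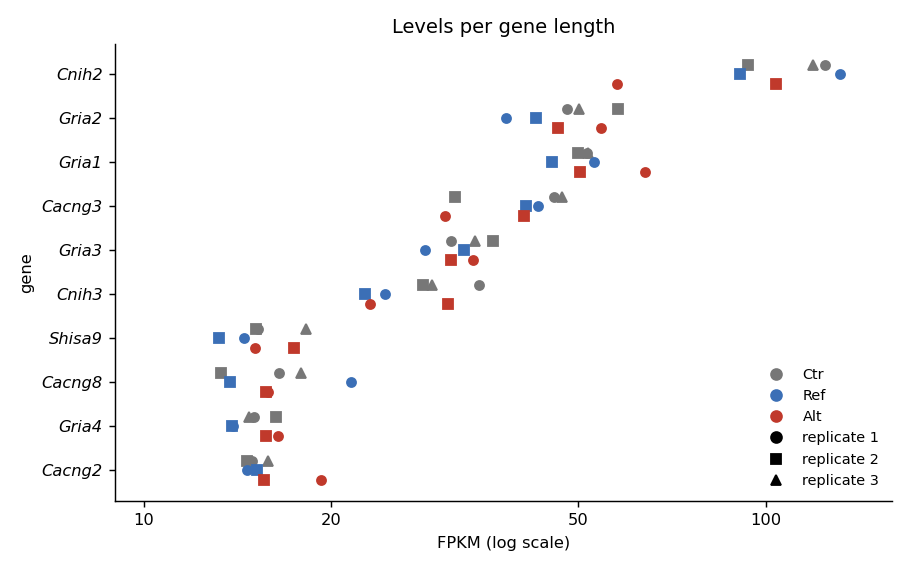
FPKM of the 10 AMPA receptor genes on a log axis, with 1 point per library, colours for the groups and shapes for the replicate numbers. Cnih2 lies to the right of every other gene except in Alt replicate 1, where it fell to 57.6 FPKM, below Gria1 at 63.9 FPKM.

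The makeup of the pore-forming pool was described by the share of each subunit in the summed FPKM of the 4 genes. The shares rest on the same table lengths, and the order of the genes depends on these lengths. In Ctr libraries Gria2 held 34.1% ± 1.75 (SD, n = 3), Gria1 33.6% ± 2.26, Gria3 22.2% ± 0.718 and Gria4 10.1% ± 0.266. In Ref libraries the Gria2 share was 28.7% and 31.7%, both below the lowest Ctr value of 32.9%. In Alt libraries it was 32.2% and 32.3%, also below the Ctr range. The Gria1 share was 31.1% to 35.4% in Ctr, 39.7% and 33.7% in Ref, and 37.9% and 35.0% in Alt, so that 1 library of Ref and 1 of Alt lay inside the Ctr range. The ratio of Gria1 to Gria2 was 0.862 to 1.08 in Ctr, 1.06 and 1.38 in Ref, and 1.09 and 1.18 in Alt. The Gria4 share stayed between 9.76% and 11.0% in all 7 libraries. Among the 6 auxiliary genes Cnih2 held 46.1% to 52.8% of their summed FPKM in 6 libraries and 35.7% in Alt replicate 1.

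Depth was 16655697 to 20750857 counts per library, lowest in Alt replicate 1. The fewest counts of a member were 618, for Cacng8 in Alt replicate 1 (exact 95% Poisson interval 570.2 to 669), and the most were 17991 for Gria2 in Ctr replicate 2. Such intervals cover counting error only. Markers of excitatory neurons were high in each group (6 of 6 measured, summed level 2370 to 2897 CPM, counts scaled to a common library total after TMM normalization). Those of striatal neurons summed to 65.9 to 118 CPM in all libraries. Of 5 hippocampal and olfactory markers 4 passed the filter, and they summed to 117 to 133 CPM in Ctr and Ref and to 139 and 160.5 CPM in Alt. Calb1 was the largest part of the sum, at 99.3 to 119.7 CPM in Ctr, 102 and 111 CPM in Ref, and 115 and 147 CPM in Alt, so that Alt replicate 2 was above all other libraries. Prox1 was highest in Alt replicate 1, at 21.8 CPM. Eomes had 0 counts in 4 of the 7 libraries, and Ctr replicate 2 had the most counts of Eomes (16), Doc2g (47) and Th (50). Alt replicate 1 stood apart. Its long genes read higher and its short genes lower than in Ctr: the median log2 difference from the Ctr mean was 0.33 for genes of 6000 bases and over and -0.57 for genes under 1500 bases. In Alt replicate 2 these medians were 0.12 and -0.17, and in Ctr and Ref libraries every such median lay between -0.08 and 0.13. The gene lengths of the members run from 1369 bases for Cnih2 to 15548 bases for Gria2, so the values of both are also given below after a correction for length and without Alt replicate 1.

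Library values below are CPM. Folds come from edgeR's quasi-likelihood test, with 95% intervals, and adjusted p-values are over all genes tested. Members and pathway genes are counted, and pathway genes called higher, lower, risen or fallen, by an unadjusted p of 0.05, since no such gene passed an adjusted p of 0.05 in edgeR.

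In Alt against Ctr, which asks what the G allele transcript does beside an empty vector, 0 of 10 members passed an unadjusted p of 0.05, against 19.8% of all genes tested. The smallest adjusted p of a member was 0.26, and no gene of the 17254 passed an adjusted p of 0.05 in edgeR. DESeq2, run as an alternative, put Gria1 and Cacng2 past an unadjusted p of 0.05, 2 of 10 against 21.1% of all genes, and gave 1097 genes but no member an adjusted p under 0.05. Of the 10 log2 fold changes 7 were positive, with a median of 0.10 against -0.03 over all genes. The Alt and Ctr libraries did not overlap for Gria1, Gria4 and Cacng2, which were higher in Alt (3 of 10, against 35.0% of all genes in either direction and 16.8% higher in Alt).

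Gria1, which encodes the subunit best known for its recruitment in synaptic plasticity, had 301, 297 and 302 CPM in Ctr, 305 and 281 CPM in Ref, and 418 and 317 CPM in Alt. Alt replicate 1 was far above the other 6 libraries, which lay close together. The log2 fold change in Alt against Ctr was 0.29 (interval -0.04 to 0.63, adjusted p = 0.31). Without Alt replicate 1 it was 0.080 (adjusted p = 0.91).

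Gria2 had 718, 886 and 752 CPM in Ctr, 567 and 679.7 CPM in Ref, and 915 and 749.7 CPM in Alt. Both Ref libraries were below every other library, while Ctr and Alt overlapped. Its log2 fold change in Alt against Ctr was 0.08 (interval -0.27 to 0.44, adjusted p = 0.83). After the correction for gene length it turned to -0.36 (interval -0.63 to -0.088, adjusted p = 0.20), past an unadjusted p of 0.05 as was Cacng2 (2 of 10, against 16.4% of all genes), and without Alt replicate 1 it was -0.064 (adjusted p = 0.94).

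Gria3, which encodes a subunit that commonly pairs with GRIA2, had 296, 353 and 324 CPM in Ctr, 267 and 330.1 CPM in Ref, and 362 and 320.2 CPM in Alt, with overlap between all groups. Gria4, known for its expression in interneurons and early development, had 91.3, 101 and 89.8 CPM in Ctr, 83.7 and 89.6 CPM in Ref, and 112 and 103 CPM in Alt. The 2 Alt libraries were the highest for Gria4 and the 2 Ref libraries the lowest, with Ref replicate 2 just under Ctr replicate 3. The log2 fold changes in Alt against Ctr were 0.07 (interval -0.27 to 0.41) for Gria3 and 0.20 (interval -0.12 to 0.51) for Gria4.

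Among the TARP genes, Cacng2 had 79.2, 79.4 and 84.0 CPM in Ctr, 77.0 and 85.6 CPM in Ref, and 115 and 89.5 CPM in Alt. Both Alt libraries were above the rest, with Alt replicate 1 far above. Its log2 fold change in Alt against Ctr was 0.34 (interval -0.0045 to 0.68, adjusted p = 0.26), the smallest p of a member in this comparison. It was 0.15 without Alt replicate 1 (adjusted p = 0.83) and 0.31 after the length correction (adjusted p = 0.30).

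Cacng3, the most abundant of the 3 TARP genes among the members, had 122, 86.3 and 126 CPM in Ctr, 114 and 117 CPM in Ref, and 91.9 and 118 CPM in Alt. Ctr replicate 2 and Alt replicate 1 were low and the other 5 libraries close together. Cacng8, which encodes a TARP prominent in hippocampus, had 37.3, 30.7 and 40.5 CPM in Ctr, 48.1 and 33.1 CPM in Ref, and 40.2 and 38.4 CPM in Alt, with all groups overlapping. The log2 fold changes in Alt against Ctr were -0.08 (interval -0.50 to 0.33) and 0.12 (interval -0.32 to 0.56).

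The cornichon gene Cnih2 had 164, 126 and 157 CPM in Ctr, 172 and 127 CPM in Ref, and 85.4 and 148 CPM in Alt. Alt replicate 1 was the lowest library and Alt replicate 2 lay inside the Ctr range. Its log2 fold change in Alt against Ctr was -0.35 (interval -0.86 to 0.15, adjusted p = 0.42), the widest interval of the 10. It was -0.033 after the length correction and -0.010 without Alt replicate 1. Cnih3 had 91.6, 76.0 and 77.1 CPM in Ctr, 64.2 and 63.9 CPM in Ref, and 68.9 and 88.3 CPM in Alt, so that both Ref libraries were the lowest.

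Shisa9, whose product slows the recovery of the channel from desensitization, had 76.9, 78.0 and 92.1 CPM in Ctr, 72.5 and 71.0 CPM in Ref, and 85.8 and 95.3 CPM in Alt. The Ref libraries were again the lowest, and Ctr and Alt overlapped. The log2 fold changes in Alt against Ctr were -0.05 (interval -0.41 to 0.31) for Cnih3 and 0.14 (interval -0.19 to 0.47) for Shisa9.

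**Figure D2:**
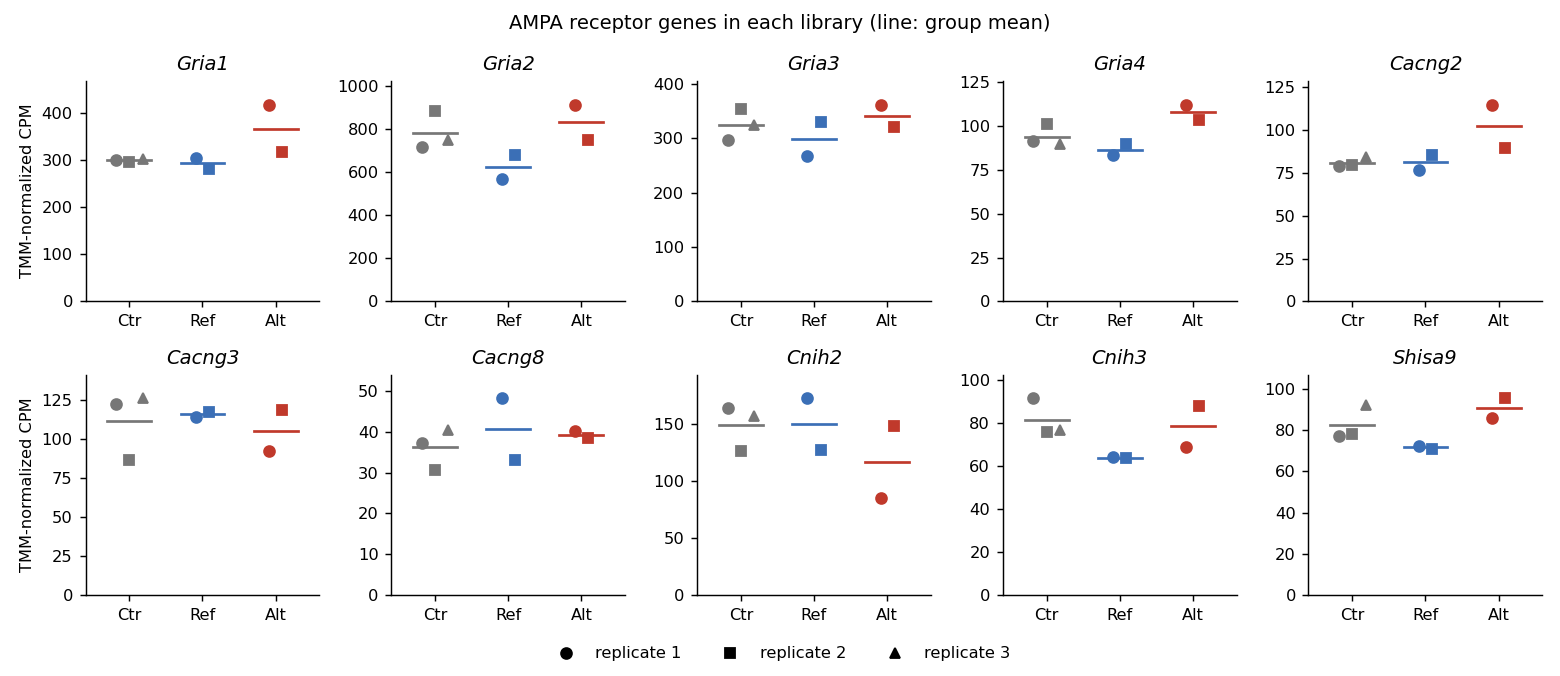
TMM-normalized CPM of each gene by group, with 1 point per library, shapes for replicate numbers and a line at the group mean; each panel has its own axis from 0. Both Ref libraries are the lowest for Gria2, Gria4, Cnih3 and Shisa9. Alt replicate 1 is the highest library for Gria1, Gria2, Gria3, Gria4 and Cacng2 and the lowest for Cnih2.

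In Alt against Ref, the comparison of the 2 alleles, Gria2 was higher in Alt past an unadjusted p of 0.05, with a log2 fold change of 0.42 (interval 0.026 to 0.81, 1.33-fold, adjusted p = 0.30). It was the only member past an unadjusted p of 0.05 in edgeR, 1 of 10 against 15.5% of all genes in either direction and 6.71% higher in Alt. The call did not hold under several other choices. The log2 fold change was 0.057 after the length correction (adjusted p = 0.90), 0.28 without Alt replicate 1 (adjusted p = 0.77) and 0.28 without Ref replicate 1. Without Ctr replicate 1 and without Ctr replicate 3 it stayed at 0.42 but no longer passed.

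Of the 6 oligodendrocyte markers 5 were lower in Alt than in Ref past an unadjusted p of 0.05, where 8.83% of all genes were. Among them was Mbp, a myelin gene and the 1 gene of all 17254 past an adjusted p of 0.05 in edgeR here (log2 fold change -1.29). DESeq2 gave 429 such genes, among them 4 of the 6 oligodendrocyte markers. Of the other marker lists, 2 of 6 inhibitory markers were lower past the same unadjusted p. So were 1 of 6 astrocyte, 1 of 4 precursor, 1 of 4 endothelial and 1 of 6 striatal markers. Among excitatory markers 1 of 6 was higher, and no microglial, hippocampal or olfactory marker passed. The part of the cell makeup in the Gria2 difference was not tested.

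For 6 members the Alt libraries were above both Ref libraries with no overlap (Gria1, Gria2, Gria4, Cacng2, Cnih3 and Shisa9), against 47.7% of all genes without overlap in either direction and 21.6% higher in Alt. The log2 fold changes of those other than Gria2 were 0.33 for Gria1, 0.32 for Gria4, 0.33 for Cacng2, 0.30 for Cnih3 and 0.34 for Shisa9. Each interval included 0, and the adjusted p ran from 0.36 for Shisa9 to 0.45 for Cnih3. With Alt replicate 1 left out, Gria1 fell to 0.12, Cacng2 to 0.15 and Gria4 to 0.27, while Cnih3 and Shisa9 were larger, as given below. Gria3 had 0.19, Cacng3 -0.14, Cacng8 -0.05 and Cnih2 -0.36 (interval -0.91 to 0.19). For Cnih2 this was 0.060 after the length correction and -0.0061 without Alt replicate 1. DESeq2 put Gria1, Gria2, Gria4 and Shisa9 past an unadjusted p of 0.05, 4 of 10 against 16.7% of all genes, with a smallest adjusted p of 0.12.

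After the length correction a different set of 4 passed: Gria1 at 0.32, Cacng2 at 0.37, Cnih3 at 0.57 (interval 0.25 to 0.90) and Shisa9 at 0.39 (interval 0.068 to 0.72), against 13.0% of all genes. Cnih3 and Shisa9 were also past an unadjusted p of 0.05 without Alt replicate 1, at 0.47 and 0.42, where 6.76% of all genes were. Their adjusted p was 0.20 or more in each of these fits.

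In Ref against Ctr, which sets the C allele transcript against the empty vector, 0 of 10 members passed in edgeR, against 3.14% of all genes, and every member had an adjusted p of 1.00. No gene passed an adjusted p of 0.05 in edgeR and 6 did in DESeq2, 3 of them oligodendrocyte markers. Gria2 and Cnih3 had the largest differences, both lower in Ref. The log2 fold change was -0.33 for Gria2 (interval -0.69 to 0.027) and -0.35 for Cnih3 (interval -0.71 to 0.014). DESeq2 put these 2 of 10 past an unadjusted p of 0.05, against 3.45% of all genes. So did edgeR after the length correction, at -0.42 for Gria2 and -0.42 for Cnih3, against 5.18% of all genes, and edgeR without Alt replicate 1, at -0.34 and -0.36, against 5.51% of all genes. The smallest adjusted p of a member in these fits was 0.85.

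Ref and Ctr libraries did not overlap for 4 of 10 members (Gria2, Gria4, Cnih3 and Shisa9), all lower in Ref, against 22.9% of all genes in either direction and 10.5% lower in Ref. The other 6 members had log2 fold changes from -0.12 for Gria3 to 0.17 for Cacng8, with all intervals across 0. Glial markers moved with this comparison. The 6 oligodendrocyte markers summed to 3716 and 4598 CPM in Ref, 2207 to 3071 CPM in Ctr and 2136 to 2628 CPM in Alt, with 5 of 6 higher in Ref against Ctr at an unadjusted p of 0.05, and 3 of 6 astrocyte markers were higher as well. The 4 oligodendrocyte precursor markers summed to 371 and 382 CPM in Ref against 246 to 320.4 CPM in Ctr, with 2 of 4 higher. The 4 endothelial markers summed to 266 and 301 CPM against 197 to 244 CPM, with 1 of 4 higher, and the 5 microglial markers to 327 and 338 CPM against 276 to 321 CPM, with 0 of 5 past the same p. The excitatory neuron markers summed to 2496 and 2709 CPM in Ref, inside the Ctr range, with 2 of 6 lower. The inhibitory neuron markers summed to 258 and 269.9 CPM in Ref, below the Ctr range of 277 to 350.3 CPM, with 0 of 6 past the same p. None of these markers was at 0 in any library. In bulk tissue, fewer cells of a type and less RNA per cell cannot be told apart, and the part of the cell makeup in the lower Gria2 and Cnih3 values was not tested. In Alt, 3 of 6 inhibitory markers were lower than in Ctr, where 10.3% of all genes were, and 1 of 6 without Alt replicate 1. Their sum was 240.5 and 247 CPM in the Alt libraries. Of the oligodendrocyte markers 2 of 6 were lower in Alt than in Ctr (Mbp at -0.51 and Mag at -0.38), and of the oligodendrocyte precursor markers 2 of 4 were higher (Cspg4 at 1.04 and Pdgfra at 0.43). In the same comparison 1 of 6 excitatory markers was higher and 1 lower, 1 of 6 astrocyte markers was lower, and 1 of 5 microglial and 1 of 4 endothelial markers were higher. When Alt replicate 1 was left out, 1 of 6 oligodendrocyte markers was lower, 1 of 4 precursor markers higher (Pdgfra at 0.24 no longer passed), 0 of 6 excitatory and 0 of 6 astrocyte markers passed, 1 of 5 microglial markers was higher and 1 lower, and 2 of 4 endothelial markers were higher.

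**Figure D3:**
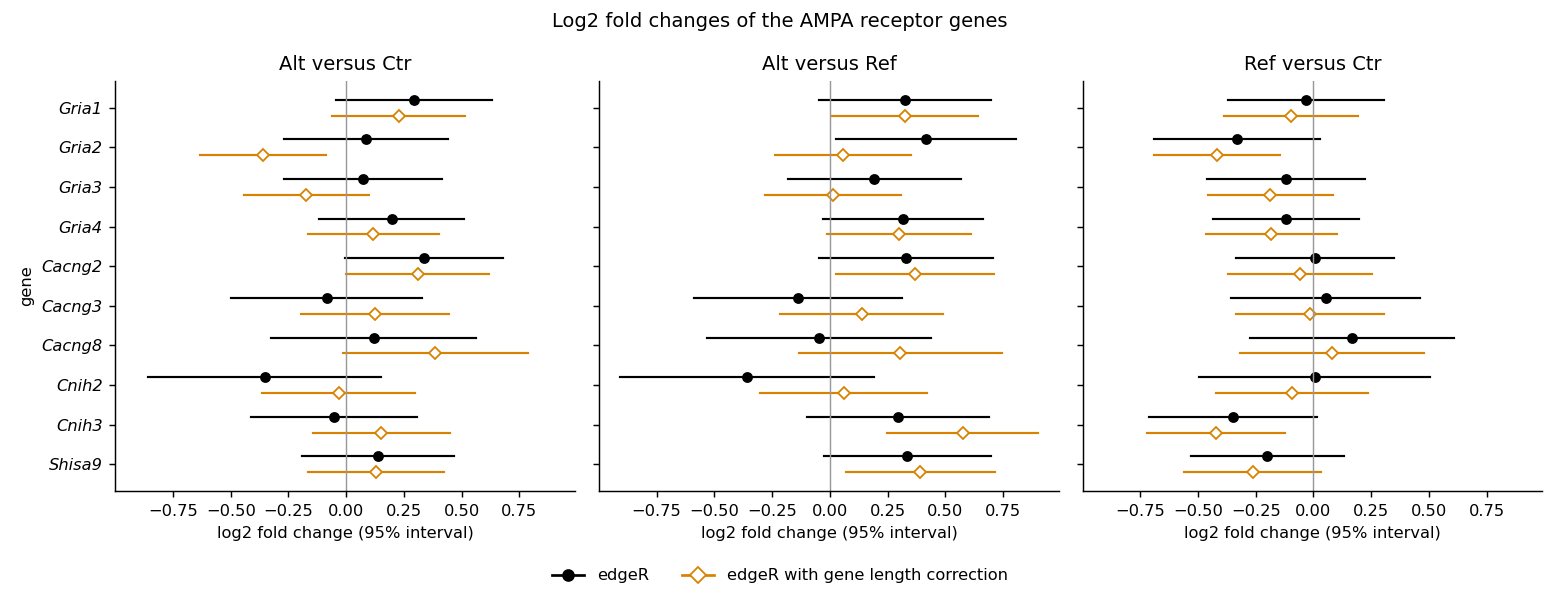
Log2 fold changes with 95% intervals for the 10 genes in the 3 comparisons, from edgeR (filled circles) and from edgeR with a correction for gene length (open diamonds). The circle of Gria2 in Alt versus Ref, at 0.42, is the only one whose interval excludes 0, and its diamond lies at 0.057. The comparisons share libraries: Ctr enters 2 of them, and so do Ref and Alt.

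Over the order Ctr, Ref and Alt, in which the study placed the groups, 0 of 10 members passed an unadjusted p of 0.05 in edgeR against 16.7% of all genes, and 0 of 10 in DESeq2. The smallest p was that of Cacng2, with a slope of 0.16 per step on the log2 scale (interval -0.014 to 0.33, adjusted p = 0.34), and Cnih2 had a slope of -0.16 (interval -0.42 to 0.091). Gria2, lower in Ref than in both other groups, had a slope of 0.02. No gene passed an adjusted p of 0.05 in edgeR for this trend, and 596 did in DESeq2, no member among them.

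In Alt replicate 1 the medians of all genes rose from one length class to the next. Of the 4 members under 3000 bases, Cnih2 (the shortest), Cnih3 and Cacng3 were 0.79, 0.24 and 0.26 below the Ctr mean on the log2 scale, and Cacng8 was above it. The 6 longer members were all above it, with no rise with length among them: Shisa9 by 0.064, Cacng2 by 0.51, Gria1 by 0.48, Gria4 by 0.26, Gria3 by 0.16 and Gria2, the longest, by 0.23. Cacng8 and Cacng2 departed from the median of their length class: Cacng8 was 0.16 above the Ctr mean where genes of 1500 to 3000 bases had a median of -0.49, and Cacng2 was 0.51 above it where genes of 3000 to 6000 bases had a median of -0.11. In Alt replicate 2 all members lay within 0.22 of the Ctr mean.

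**Figure D4:**
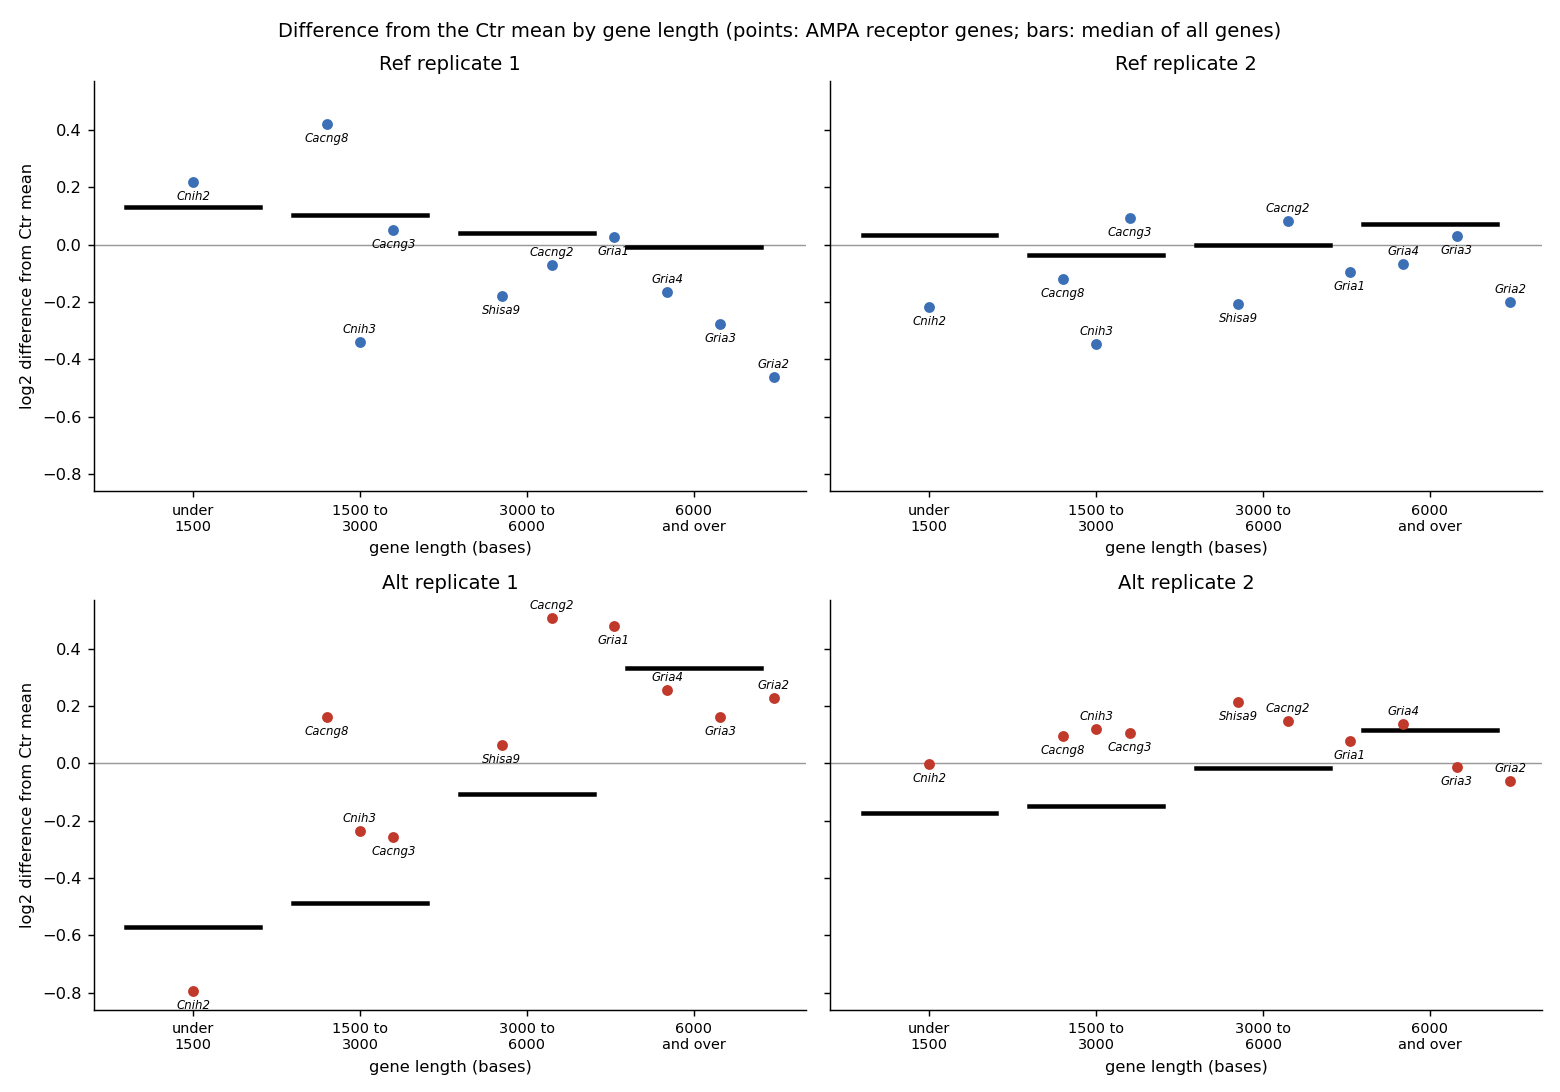
Log2 difference of each Ref and Alt library from the Ctr mean, for the 10 genes (points, in order of length within each class) and for all genes tested (bars, medians of 4 length classes). In Alt replicate 1 the bars climb from -0.57 to 0.33 and the points spread from -0.79 to 0.51, while in the other 3 libraries the bars stay between -0.17 and 0.13.

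Of 53 other genes of the AMPA receptor pathway, all 53 were tested, and in Alt against Ctr 10 were higher and 8 lower at an unadjusted p of 0.05, where 9.45% and 10.3% of all genes were. In edgeR none had an adjusted p under 0.05. In DESeq2, 8 did (Shisa7, Gsg1l, Dlg2, Myo5a and Prkcb higher, Arc, Ap2m1 and Ppp1ca lower), where 8.50% of the 12905 genes with an adjusted p did. In Alt against Ref 5 did, where 3.82% of 11233 genes did, and for the trend 4 did, where 5.31% of 11232 genes did. Without Alt replicate 1, 4 were higher (Shisa7, Myo5a, Prkcb and Camk2a) and 1 lower (Arc), where 3.68% and 4.46% of all genes were (8.14% in either direction). In Alt against Ref 9 were higher and 5 lower, where 6.71% of all genes were higher and 8.83% lower, and without Alt replicate 1 these counts were 4 and 3. In Ref against Ctr 0 of 53 passed in edgeR and 1 in DESeq2. The medians of all genes in Alt against Ctr, beside which those of the lists below stand, were -0.03 with all libraries, -0.035 without Alt replicate 1 and -0.014 after the length correction.

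Of 13 further genes of the receptor complex, 2 were higher and 2 lower in Alt against Ctr, with a median log2 fold change of -0.17. The median was -0.032 without Alt replicate 1 (1 higher, 0 lower) and 0.010 after the length correction (2 higher, 0 lower). Shisa7, a relative of Shisa9, had 102, 79.6 and 117 CPM in Ctr, 123 and 108 CPM in Ref, and 181 and 142 CPM in Alt, with a log2 fold change of 0.70 (adjusted p = 0.12). Gsg1l, whose product dampens AMPA receptor currents, rose by 0.51 (adjusted p = 0.14), and at 0.40 without Alt replicate 1 it no longer passed. Cacng7, another TARP gene, fell by 0.42 (adjusted p = 0.20) and Syndig1, which encodes a synaptic receptor-associated protein, fell by 0.55 (adjusted p = 0.24). Olfm2 had -0.41 and did not pass. The values without Alt replicate 1 were -0.20 for Cacng7, -0.35 for Syndig1 and -0.13 for Olfm2, and none of these passed. Both Alt libraries of Shisa7 were above all others, and both of Cacng7 below.

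Of 7 biogenesis genes, 2 were higher and none lower, with a median of 0.20. The median was 0.013 without Alt replicate 1 (0 of 7 past the same p) and 0.061 after the length correction (1 higher). Frrs1l, which encodes a factor of receptor assembly in the endoplasmic reticulum, rose by 0.48 (adjusted p = 0.18), with 1041 CPM in Alt replicate 1 and 665 CPM in Alt replicate 2 against 576 to 642 CPM in Ctr. Adarb1, the editing enzyme of the Gria2 Q/R site shown above, rose by 0.37 (adjusted p = 0.22). It had 129, 152 and 149 CPM in Ctr, 162 and 158 CPM in Ref, and 208 and 163 CPM in Alt, so that Alt replicate 2 and both Ref libraries were close together. The remaining 3 genes with the smallest p had -0.40 (Porcn), 0.23 (Adar) and 0.20 (Sacm1l), none past an unadjusted p of 0.05. Without Alt replicate 1 the value was 0.12 for Frrs1l, 0.19 for Adarb1, 0.053 for Adar and -0.13 for Sacm1l, while Porcn moved further from 0, to -0.46.

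Of 21 trafficking, anchoring and clustering genes, 3 were higher and 3 lower, with a median of 0.01. After the length correction the median was -0.20 (4 higher, 6 lower), and without Alt replicate 1 it was -0.00072 (1 higher, 1 lower). Arc, an immediate early gene whose product promotes removal of AMPA receptors from the surface, had 308, 242 and 167 CPM in Ctr, 228 and 227 CPM in Ref, and 69.1 and 117 CPM in Alt. Both Alt libraries were below all others. Its log2 fold change was -1.36 (adjusted p = 0.12), and -1.03 without Alt replicate 1 (adjusted p = 0.43). Myo5a, a motor protein gene, rose by 0.79 (adjusted p = 0.12), Dlg2, which encodes the scaffold PSD-93, by 0.60 (adjusted p = 0.14) and Nptxr, the neuronal pentraxin receptor, by 0.46 (adjusted p = 0.20). Ap2m1, a subunit of the clathrin adaptor for endocytosis, fell by 0.54 (adjusted p = 0.15). Without Alt replicate 1 the value was 0.39 for Myo5a, 0.27 for Dlg2, 0.31 for Nptxr and -0.29 for Ap2m1, and Myo5a alone of these 4 passed.

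Of 12 kinase and phosphatase genes, 3 were higher and 3 lower, with a median of -0.03. This median was 0.078 without Alt replicate 1 (2 higher, 0 lower) and -0.13 after the length correction (1 higher, 2 lower). Prkcb, a protein kinase C gene, had 536, 572 and 679 CPM in Ctr, 644 and 761 CPM in Ref, and 1145 and 827 CPM in Alt, with a log2 fold change of 0.73 (adjusted p = 0.12). It was 0.47 without Alt replicate 1 (adjusted p = 0.55). Prkca rose by 0.39 (adjusted p = 0.17), and at 0.29 without Alt replicate 1 it no longer passed. Ppp1ca, a catalytic subunit of protein phosphatase 1, fell by 0.71 (adjusted p = 0.13), the tyrosine kinase gene Fyn by 0.42 (adjusted p = 0.18) and Prkaca, a catalytic subunit of protein kinase A, by 0.36 (adjusted p = 0.22). With Alt replicate 1 left out the value was -0.40 for Ppp1ca, -0.25 for Fyn and -0.22 for Prkaca, and none of these passed.

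**Figure D5:**
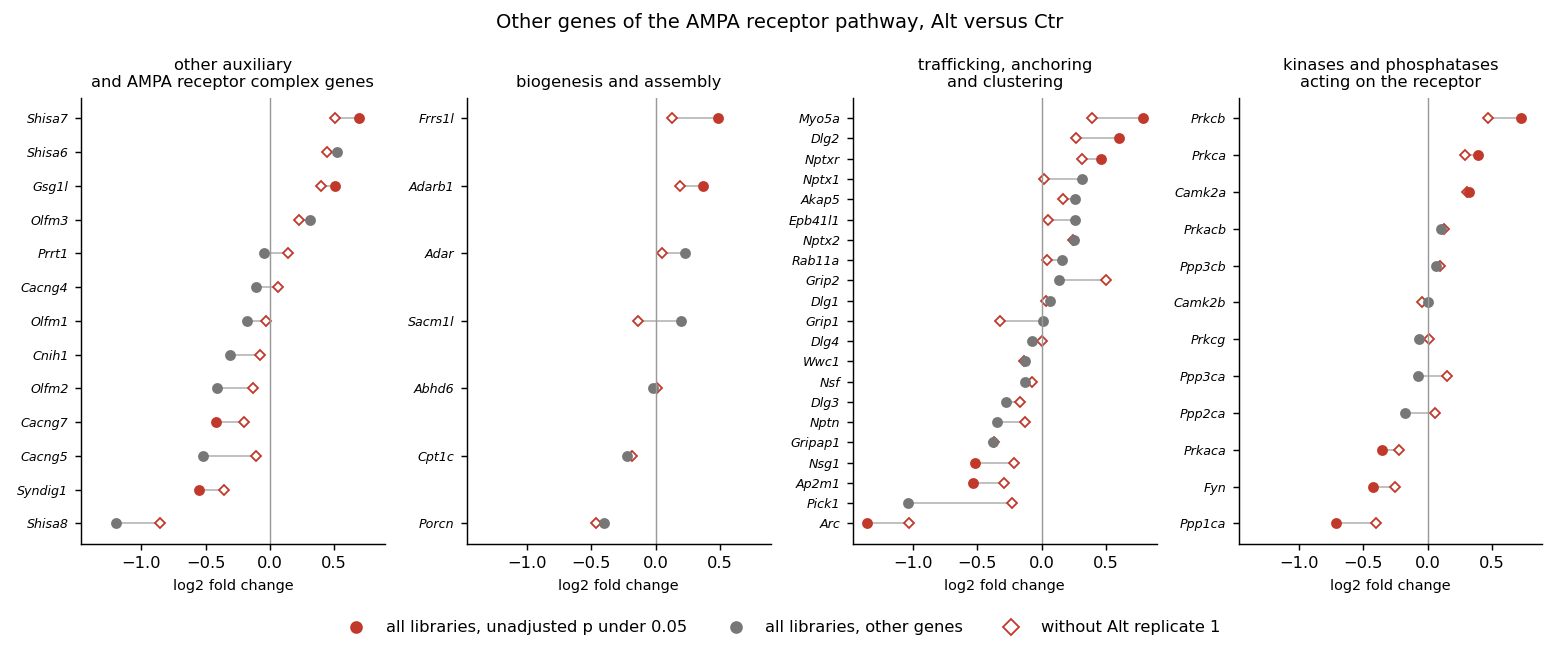
Log2 fold changes of the 53 other pathway genes in Alt versus Ctr, in 4 panels by role: circles for all libraries (red where the unadjusted p is under 0.05) and open diamonds without Alt replicate 1. Arc lies at -1.36 and -1.03, and for most red genes the diamond lies nearer 0 than the circle.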

How the data were processed

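RNA-seq was made from PFC of female mice in 3 Ctr, 2 Ref and 2 Alt libraries, with poly(A) selection and a kit that marks the second strand. The authors deposited 1 table with gene counts, TPM and FPKM per library. The submitters' processing notes name STAR and featureCounts, without versions; the build they name is a human one, which cannot serve for the mouse gene identifiers of the table, and the mouse build of its coordinates is not given in the sources used here. All 7 libraries were used, grouped by their labels, and no 2 of the same group were alike within sampling noise. The 2 Alt libraries differed most (chi-square per degree of freedom 62.4, against 26.65 in Ref and 19.68 to 26.09 in Ctr). The tests fit 1 spread over all groups, which does not allow for this difference. The columns of TPM and FPKM are the authors' own values. FPKM was used for levels between genes and shares, and counts for all tests.

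Tests were run on the counts by edgeR 4.0.16 under R 4.3.3 (TMM, filterByExpr by group, glmQLFit, glmQLFTest, 1 spread over 7 libraries), adjusted by Benjamini-Hochberg over 17254 genes. Alternatives were DESeq2 1.42.0 (Wald test, and its size factors in edgeR), no filter, offsets from a loess of span 0.3 on gene length, a replicate block, each library left out and fits of the 2 groups compared. Scripts were tested on simulated data. The p-values measure the spread between libraries, which may be technical. All members are named, with at most 5 genes of smallest p in Alt versus Ctr from each pathway list; genes named beyond these (Camk2a, which is past p in Alt versus Ctr, and marker genes) were chosen after their values were seen. The members and lists were chosen with earlier results of these data known.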

Additional observations from a re-analysis of the deposited data

How the results depend on the processing

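Of 390 refits of the members' log2 fold changes in the 3 comparisons (13 alternatives), 312 kept their direction and side of an unadjusted p of 0.05, 34 newly passed, 7 (all of Gria2 in Alt versus Ref) no longer passed and 38 changed sign, of which 1 (Gria2 in Alt versus Ctr after the gene length correction) is also among the 34. In Alt versus Ctr the members past this p numbered 0 as reported (19.8% of all genes), 2 with DESeq2 (21.1%) and 2 with the gene length correction (16.4%). They numbered 1 with DESeq2 size factors and 1 without the filter on low counts, where the share of all genes was not computed. In Alt versus Ref the members past this p numbered 1 as reported (15.5% of all genes), 4 with DESeq2 (16.7%) and 4 with the length correction (13.0%). They numbered 2 with DESeq2 size factors and 0 with the 2 groups alone, where the share was not computed. In Ref versus Ctr the members past this p numbered 0 as reported (3.14% of all genes), 2 with DESeq2 (3.45%) and 2 with the length correction (5.18%). They numbered 1 with DESeq2 size factors and 2 with the 2 groups alone, again without a share. For the trend the members past this p numbered 0 as reported (16.7% of all genes). With the length correction 1 passed (Gria2, falling), where the share was not computed. The cause of these moves was not tested.

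Signs turned under the length correction in Alt versus Ctr for Gria2 (-0.36), Gria3 (-0.17), Cacng3 (0.12) and Cnih3 (0.15), in Alt versus Ref for Cacng3 (0.14), Cacng8 (0.31) and Cnih2 (0.060), and in Ref versus Ctr for Cacng2 (-0.058), Cacng3 (-0.015) and Cnih2 (-0.093). In Ref versus Ctr, Cacng2 and Cnih2, at 0.0072 and 0.0064 as reported, turned to -0.0049 and -0.0076 with DESeq2 and with its size factors, and to -0.011 and -0.012 with the 2 groups alone. The correction moved the median over all genes in Ref versus Ctr from 0.0055 to -0.064.

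With 1 library left out, the sign changed at least once in these ranges. In Alt versus Ctr, Gria2 ran from -0.064 to 0.22, Gria3 from -0.016 to 0.16, Cacng3 from -0.28 to 0.085 and Cnih3 from -0.24 to 0.12. In Alt versus Ref, Cacng3 ran from -0.32 to 0.045 and Cacng8 from -0.28 to 0.24. In Ref versus Ctr, Gria1 ran from -0.092 to 0.019, Gria3 from -0.29 to 0.029, Cacng2 from -0.080 to 0.086, Cacng3 from -0.10 to 0.15, Cacng8 from -0.13 to 0.40 and Cnih2 from -0.22 to 0.20. A group left with 1 library was assumed to vary like the others.

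The replicate numbers are shared between groups. For libraries of the same number, the correlation of deviations from the group mean was weak, at -0.098 to 0.070. Within Ref and within Alt the deviations of the libraries mirror each other, so these values are not all independent. With so few libraries they cannot decide whether the numbers pair them. With the replicate block no member passed in Alt versus Ref (0), where Gria2 had 0.43 against 0.42 as reported (adjusted p = 0.55), and Cacng3 in Alt versus Ctr turned to 0.016. Without Alt replicate 1, an alternative added after the data were seen, the pathway genes past an unadjusted p of 0.05 in Alt versus Ctr numbered 5 and not 18, and 16 with the length correction. Shares from TPM in place of FPKM were identical, as they must be, since TPM rescales FPKM by a constant factor within each library.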
